A study of Arabidopsis thaliana with 40 samples.

Results

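The comparison set the shoot of nobiro6 seedlings against the shoot of bz1728 seedlings of Arabidopsis thaliana, across all genes. Its members are the 8 shoot libraries whose titles carry these names, 4 of each line, out of 40 libraries in the series. The study sequenced messenger RNA from root and shoot of 5 lines with 4 repeats each. The line nobiro6 is a suppressor mutant, written in the labels as the bzip1728 double mutant plus a further change, and bz1728 is that double mutant (SALK_004048 and SALK_132285), with T-DNA insertions in BZIP17 and BZIP28. The wild type, wt, is Col-0, and nbr6-t1 (GABI_172C03) is a T-DNA line whose TAF12B transcript was low in shoot and whose BZIP28 transcript was present (39.7 ± 3.02 CPM). The fifth line, taf12-t1 (WiscDsLoxHs044_12E), is a T-DNA line named for the paralog TAF12, and its libraries entered the fit but no comparison of their own. All lines were grown alike and untreated, on agar plates of diluted growth medium at 22 °C and 65% humidity with 16 h of light, after 3 d at 4 °C in the dark. The labels give the age as 12 d in one field and as 13 days after sowing in another. Each mutant is a single line. The labels do not say whether the suppressor was backcrossed, nor whether the repeats came from separate plates, so the p-values measure the spread between these libraries.

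BZIP17 and BZIP28 encode transcription factors held in the membrane of the endoplasmic reticulum (ER). When unfolded proteins build up they move to the Golgi, are cut there, and enter the nucleus to switch on genes for chaperones and folding enzymes, a part of the unfolded protein response (UPR). A parallel arm works through the RNA-splicing sensor IRE1 and BZIP60. TAF12B and its paralog TAF12 encode a subunit of TFIID and SAGA, the complexes that bring RNA polymerase II to promoters and modify their histones.

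Levels are CPM, counts scaled to a total of 1000000 per library with normalization factors computed over the shoot libraries, given for each library or as mean ± SD over n = 4. The nobiro6 libraries held 4122349 to 5636211 counts, the bz1728 libraries 3423487 to 6763779 and the wt libraries 7575174 to 12896653. A single count stood for 0.177 to 0.243 CPM in nobiro6 and 0.148 to 0.292 CPM in bz1728. Over the 8 libraries the first principal component, with 47.1% of the variance, separated the lines. On the second, with 14.0%, nobiro6 replicate 3 stood apart from the other nobiro6 libraries. Root markers were near absent: the 15 genes of that list summed to 1.69 to 4.39 CPM in nobiro6 and 3.20 to 5.24 CPM in bz1728, and none passed the filter on low counts. The shoot markers for Rubisco and light harvesting were abundant in every library, with CA1, a carbonic anhydrase of the chloroplast, between 2789 and 4319 CPM.

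The mutated genes were read first. BZIP28 (AT3G10800) had 24.3, 25.8, 25.7 and 31.6 CPM in the nobiro6 libraries, against 0, 0, 0 and 0 CPM in the bz1728 libraries. All 4 nobiro6 libraries carried the transcript and no bz1728 library had a single count. BZIP28 was therefore at least 182-fold higher in nobiro6, set against 3 counts over the bz1728 group. It stood somewhat below the wt level of 34.5 ± 5.44 CPM (nobiro6 against wt, log2 fold change -0.36 ± 0.11, adjusted p 0.0403). The next gene on the chromosome, AT3G10810, annotated as a RING finger protein, showed the same picture with 29.9, 36.2, 28.6 and 32.5 CPM in the nobiro6 libraries, against 0, 0, 0.141 and 0 CPM in the bz1728 libraries. Over the groups the nobiro6 level was 645 times the bz1728 level, where 1 count was seen, with a 95% counting interval of 115 to 25506. Beyond it, AT3G10815 had 3.71, 0.696, 0.623 and 0.439 CPM in the nobiro6 libraries, against 0, 0, 0 and 0 CPM in the bz1728 libraries, and it did not pass the filter in shoot. The neighbours on the other side, AT3G10780 and AT3G10790, were at or near 0 counts in both lines.

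BZIP17 (AT2G40950) was low in both lines, with 3.54, 2.32, 1.04 and 2.86 CPM in the nobiro6 libraries, against 3.86, 2.13, 2.39 and 2.80 CPM in the bz1728 libraries. The groups overlapped, and the gene was not called between them (log2 fold change -0.12 ± 0.27, adjusted p 0.824), while wt held 29.0 ± 2.72 CPM. So the libraries labelled nobiro6 lack most BZIP17 transcript, as bz1728 does, but hold BZIP28 and AT3G10810 transcripts that bz1728 lacks. The names of the deposited tables for these libraries also carry another suppressor number than the label, so that they are the line nobiro6 rests on the label. For every gene below, the suppressor change and the presence of these transcripts cannot be told apart. TAF12B (AT1G17440) had 20.2, 23.7, 18.3 and 15.6 CPM in the nobiro6 libraries, against 41.1, 49.3, 47.6 and 45.0 CPM in the bz1728 libraries, with every nobiro6 library below every bz1728 library. It fell by 1.24 ± 0.12 on the log2 scale (adjusted p 4.59e-08), to a level near the 14.2 ± 2.39 CPM of nbr6-t1, against 48.7 ± 5.07 CPM in wt. TAF12 (AT3G10070), the paralog, was not called, at 9.78 ± 0.794 CPM in nobiro6 against 11.0 ± 1.01 in bz1728. Of the 22 genes for TFIID and SAGA subunits, TAF12B was the only member called.

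**Figure D1:**
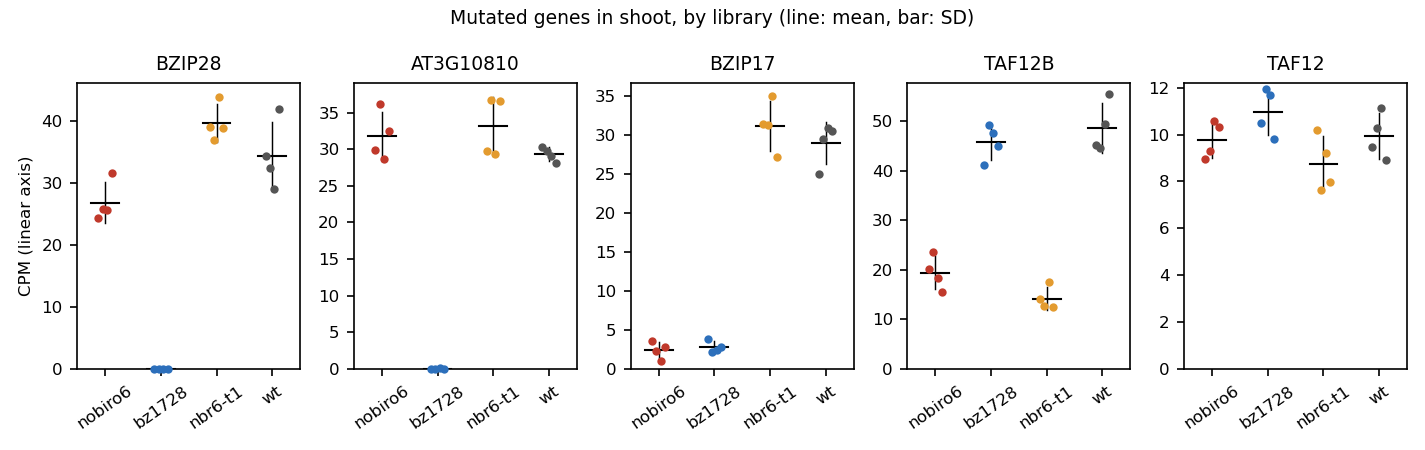
Level in CPM (linear axes) of BZIP28, its neighbour AT3G10810, BZIP17, TAF12B and TAF12 in each of 4 shoot libraries of nobiro6, bz1728, nbr6-t1 and wt; the horizontal line is the mean and the vertical bar the SD. BZIP28 and AT3G10810 are present in nobiro6 and at or near 0 in bz1728, BZIP17 is low in both, and TAF12B in nobiro6 (15.6 to 23.7 CPM) lies below bz1728 (41.1 to 49.3 CPM).

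Of 17382 genes tested, 3644 (21.0%) were called at an adjusted p under 0.05: 1412 (8.12%) were higher in nobiro6 than in bz1728 and 2232 (12.8%) were lower. Most changes were modest. At least 2-fold were 248 of the increases and 723 of the decreases, and at least 4-fold were 69 increases and 164 decreases. In 2887 of the called genes the 4 nobiro6 libraries all lay on one side of the 4 bz1728 libraries, as they did in 3724 (21.4%) of all genes tested. The median log2 fold change of all genes tested was 0.02. Set against wt, nobiro6 had 2110 genes called (12.1%; 637 higher, 3.66%, and 1473 lower, 8.47%), and bz1728 had 3098 (17.8%; 1460 higher, 8.40%, and 1638 lower, 9.42%). These comparisons share libraries with the main one, so their values are set side by side for each gene or list and not tallied against each other. The counts of list members that follow stand beside the 8.12% of all genes that rose and the 12.8% that fell. The lists and their members were chosen with earlier results of these data known. A list's share beside these values is therefore a description and not a test. In whole shoots, fewer cells of a type and less RNA per cell cannot be told apart.

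BZIP28 is known to act on genes of the ER. Of the 22 genes for ER chaperones and folding enzymes, 4 (18%) rose and none fell (median log2 fold change 0.14), where 8.12% of all genes rose and 12.8% fell. Against wt, 12 of the 22 were lower in nobiro6 and 13 in bz1728, with 3 higher in each. Those that rose were the calreticulin genes CRT1 (0.32 ± 0.07) and CRT1b (0.31 ± 0.10), the oxidoreductin gene ERO2 (0.63 ± 0.16) and the co-chaperone gene ERDJ3B (0.43 ± 0.13). CRT1 had 88.4, 75.0, 85.9 and 91.4 CPM in the nobiro6 libraries, against 67.9, 69.1, 67.8 and 68.4 CPM in the bz1728 libraries. The bz1728 values lay within a narrow band and each nobiro6 value lay above it (adjusted p 0.00208), but below the 131 ± 5.44 CPM of wt. ERDJ3B had 28.5 ± 2.81 CPM in nobiro6 against 21.2 ± 1.16 in bz1728, and wt stood higher, at 48.6 ± 3.22 CPM.

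The HSP70 chaperone genes BIP1 and BIP2 were not called. BIP1 stood at 157 ± 19.0 CPM in nobiro6, 137 ± 5.32 in bz1728 and 246 ± 21.1 in wt (nobiro6 against bz1728, 0.20 ± 0.10, adjusted p 0.184), and BIP2 at 99.3 ± 18.7 CPM in nobiro6, 79.2 ± 3.97 in bz1728 and 167 ± 26.3 in wt (0.33 ± 0.14, adjusted p 0.0963). Reads shared between these near-identical genes make the split between them uncertain. The other uncalled members were, by log2 fold change, PDIL2-2 (-0.48), ERDJ3A (-0.54), the calreticulin-family gene AT5G07340 (-0.26), PDIL1-2 (-0.09), PDIL2-1 (-0.05), SDF2 (0.00), PDIL2-3 (0.01), PDIL1-4 (0.02), PDIL1-1 (0.05), CNX1 (0.13), SHD (0.14), UGGT (0.14), PDIL1-3 (0.24), P58IPK (0.28), ERO1 (0.32) and CRT3 (0.37). They include disulfide isomerases, calnexin, the HSP90-type chaperone SHD and the glucosyltransferase sensor UGGT. The gene list labels AT5G07340 as CNX2, beside CNX1. Calls within this list were lost for CRT1b without nobiro6 replicates 1 or 4 or bz1728 replicates 1, 2 or 4 (adjusted p 0.0578 to 0.104) and for ERDJ3B without nobiro6 replicate 4 or bz1728 replicates 2 or 3 (adjusted p 0.0513 to 0.0744). With either bz1728 replicate 2 or nobiro6 replicate 4 left out, 2 of the 22 rose rather than 4. ERDJ3A (adjusted p 0.0517) was called lower with DESeq2 and with the 2 lines fitted alone. BIP2 and CRT3 were called higher with the 2 lines fitted alone.

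Among the 11 genes of the stress-type response, none rose and 3 (27%) fell (median -0.10). The transcription factor gene NAC103, a target of BZIP60, had 2.36, 2.09, 4.15 and 3.296 CPM in the nobiro6 libraries, against 9.66, 6.82, 10.4 and 8.40 CPM in the bz1728 libraries. No library of one line reached into the range of the other, and the fold change was -1.57 ± 0.32, adjusted p 0.000872. Both lines stood above wt, at 0.564 ± 0.265 CPM. SARA1A, for a small GTPase of vesicle export from the ER, stood at 4.56 ± 0.494 CPM in nobiro6, 7.24 ± 1.08 in bz1728 and 2.22 ± 0.528 in wt (-0.67 ± 0.21, adjusted p 0.0212). NAC089, for a membrane-tethered NAC factor, stood at 18.3 ± 1.63 CPM in nobiro6, 26.8 ± 3.06 in bz1728 and 21.3 ± 2.57 in wt (-0.54 ± 0.12, adjusted p 0.00231). SEC31A, for a coat protein of ER export vesicles, averaged 8.78 ± 3.37 CPM in nobiro6, 13.7 ± 1.69 in bz1728 and 1.57 ± 0.790 in wt; its groups overlapped and it was not called (-0.63 ± 0.26, adjusted p 0.083).

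BZIP60 itself stood at 54.2 ± 5.40 CPM in nobiro6, 51.7 ± 3.11 in bz1728 and 27.6 ± 2.55 in wt. Both mutant lines were above wt by about the same amount (0.97 ± 0.11 and 0.90 ± 0.11), and the gene was not called between them (0.07 ± 0.11, adjusted p 0.711). BIP3, the stress-induced HSP70 gene, had only 9 counts over the nobiro6 libraries and 7 over the bz1728 libraries, against 3.21 ± 2.36 CPM in wt. The remaining members were not called: NAC062 (0.10), TIN1 (-0.10), BAG7 (-0.15), IRE1A (0.29) and IRE1B (0.08). The SARA1A call was lost without nobiro6 replicate 3 or bz1728 replicate 4 (adjusted p 0.0592 to 0.0715), and SEC31A was called only without nobiro6 replicate 1 (adjusted p 0.0278). Of 12 genes for ER-associated degradation and export, DER2.1, a derlin, rose (0.52 ± 0.13, adjusted p 0.00505; 27.2 ± 3.94 CPM in nobiro6 against 18.9 ± 0.229 in bz1728), and no other member was called.

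**Figure D2:**
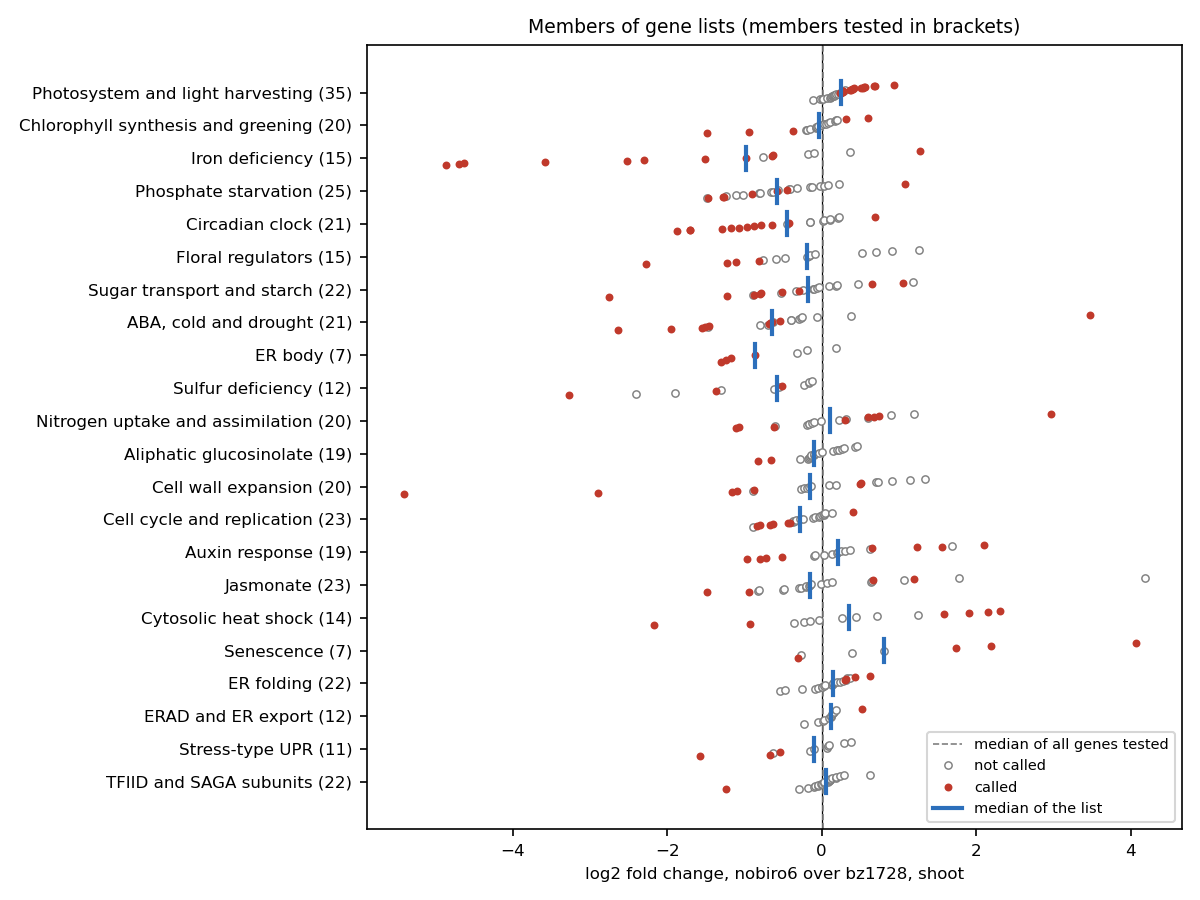
Log2 fold change of nobiro6 over bz1728 in shoot (horizontal axis) for each tested member of 22 gene lists (rows; number tested in brackets). Filled points were called, open points were not, thick bars are list medians and the dashed line is the median of all genes tested (0.02). Iron deficiency, ER body, clock and phosphate genes lie mostly to the left, photosystem genes to the right and the ER lists near 0.

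Many genes for the photosystems and their light-harvesting antennae were higher in nobiro6. Of 35 tested, 18 rose and none fell, with a median log2 fold change of 0.25, where 8.12% of all genes rose. Against wt, 26 of the 35 were lower in bz1728 and none was called in nobiro6. PSAD-2, a photosystem I subunit that docks ferredoxin, had 684, 689, 633 and 679 CPM in the nobiro6 libraries, against 385, 372, 399 and 516 CPM in the bz1728 libraries. All nobiro6 libraries lay above all bz1728 libraries (0.68 ± 0.10, adjusted p 2.27e-05), and wt stood at 662 ± 72.8 CPM. LHCB4.2, a minor antenna protein of photosystem II, had 1501, 1552, 1521 and 1648 CPM in the nobiro6 libraries, against 989.7, 1012, 1024 and 1263 CPM in the bz1728 libraries. The bz1728 replicate 4 was the highest of its group, yet below every nobiro6 library (0.54 ± 0.08, adjusted p 3.61e-05).

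The major antenna genes LHCB2.1 (0.69 ± 0.09) and LHCB2.2 (0.94 ± 0.14) also rose. LHCB2.1 averaged 1659 ± 93.2 CPM in nobiro6, 1026 ± 185 in bz1728 and 1625 ± 119 in wt, and LHCB2.2 averaged 1554 ± 147 CPM in nobiro6, 811 ± 236 in bz1728 and 1324 ± 141 in wt. These near-identical genes share reads, so how the counts divide between them is uncertain. The list summed to 63013 to 70368 CPM in nobiro6, 49754 to 67881 in bz1728 and 65311 to 75930.4 in wt, and the ranges of nobiro6 and bz1728 overlapped through bz1728 replicate 4. Without that library 25 members rose. Without nobiro6 replicate 4, bz1728 replicate 1 or bz1728 replicate 2 the number was 12.

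Among 20 genes of chlorophyll synthesis and greening 2 (10%) rose and 3 (15%) fell, shares near those of all genes. GLK2, a transcription factor that drives photosystem genes, stood at 222 ± 21.8 CPM in nobiro6, 146 ± 14.1 in bz1728 and 234 ± 38.8 in wt (0.60 ± 0.11, adjusted p 0.000531). PORB, a protochlorophyllide oxidoreductase, had 90.11, 102, 107 and 104 CPM in the nobiro6 libraries, against 301, 251, 323 and 250.3 CPM in the bz1728 libraries. Its bz1728 libraries were the high ones, at more than 2 times any nobiro6 library (-1.48 ± 0.24, adjusted p 0.000335), and wt stood with nobiro6 at 107 ± 29.8 CPM. The GATA factor genes CGA1 (-0.94 ± 0.15, adjusted p 0.000112) and GNC (-0.37 ± 0.10, adjusted p 0.0108) fell, the GNC call being lost without nobiro6 replicate 1 (adjusted p 0.0583). Of 11 Rubisco and carbonic anhydrase genes, BCA3 (-1.53 ± 0.45) and CA1 (-0.29 ± 0.09) fell and BCA6 (0.39 ± 0.13) rose. None of these calls held in every fit with 1 library left out: BCA3 was lost without nobiro6 replicates 3 or 4 or bz1728 replicate 4 (adjusted p 0.0506 to 0.0595), CA1 without nobiro6 replicate 1 or bz1728 replicates 2 or 4 (adjusted p 0.0508 to 0.0911) and BCA6 without nobiro6 replicates 1, 2 or 4 or bz1728 replicates 1, 2 or 4 (adjusted p 0.0548 to 0.152).

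Most tested genes of a list for the response to iron shortage were lower in nobiro6. Of 18 listed, 15 were tested: 10 fell and 1 rose, with a median log2 fold change of -0.98, where 12.8% of all genes fell. With 1 library left out the number that fell was 7 to 11. Against wt, 8 were higher in bz1728 and 1 in nobiro6. BHLH38, BHLH39, BHLH100 and BHLH101 encode the transcription factors of the Ib group, which act with FIT and others to turn on iron uptake. BHLH38 had 0, 0.232, 0.415 and 7.25 CPM in the nobiro6 libraries, against 102, 45.4, 33.8 and 9.60 CPM in the bz1728 libraries. BHLH39 had 0, 0, 1.25 and 3.74 CPM in the nobiro6 libraries, against 82.5, 38.6, 18.0 and 5.60 CPM in the bz1728 libraries. In both genes nobiro6 replicate 4 was the highest of its group and bz1728 replicate 4 the lowest of its own, with no overlap. The log2 fold changes were -4.63 ± 0.92, adjusted p 0.00203 for BHLH38 and -4.87 ± 0.96, adjusted p 0.00197 for BHLH39.

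BHLH100 had 0.337, 1.39, 2.49 and 3.96 CPM in the nobiro6 libraries, against 118, 51.8, 33.2 and 7.40 CPM in the bz1728 libraries (-4.70 ± 0.85, adjusted p 0.000956). Its bz1728 values spread over more than 10-fold, with replicate 4 again the lowest. The wt means of these genes were 1.75 CPM for BHLH38, 1.26 CPM for BHLH39 and 3.23 CPM for BHLH100, close to nobiro6. AT1G47395 had 4.22, 3.71, 5.40 and 10.8 CPM in the nobiro6 libraries, against 127, 76.8, 46.8 and 39.8 CPM in the bz1728 libraries. Its neighbour AT1G47400 stood at 7.62 ± 2.67 CPM in nobiro6, 44.3 ± 16.5 in bz1728 and 7.27 ± 1.88 in wt. Both are annotated as uncharacterized proteins. The gene list labels AT1G47395 as IMA2 and AT1G47400 as IMA1, and AT2G30766, named below, as IMA3. AT1G47395 and AT1G47400 fell by 3.58 ± 0.43 and 2.52 ± 0.35 on the log2 scale (adjusted p 2.51e-05 and 7.62e-05), with every nobiro6 library below every bz1728 library. The other members that fell were BHLH101 (-2.30 ± 0.52), AT2G30766 (-1.51 ± 0.32), the nicotianamine synthase gene NAS4 (-0.98 ± 0.29), the ferric reductase gene FRO3 (-0.64 ± 0.21) and OPT3, for a transporter that loads iron into phloem (-0.63 ± 0.18). NAS3 rose (1.27 ± 0.28).

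Without nobiro6 replicate 4 the log2 fold changes were -7.72 for BHLH38 and -6.39 for BHLH39, and the direction and call were the same with any 1 of the 8 libraries left out. Without bz1728 replicate 1 they were -3.96 for BHLH38, -4.08 for BHLH39 and -3.95 for BHLH100. The list summed to 629.9 to 1241 CPM in nobiro6, 1231 to 1999.9 in bz1728 and 933 to 1159.6 in wt. The ranges of nobiro6 and bz1728 overlapped slightly. Of 5 iron storage and sequestration genes tested none was called. The ferritin gene FER1 stood at 169 ± 93.6 CPM in nobiro6, 104 ± 27.1 in bz1728 and 281 ± 209.8 in wt (0.71 ± 0.44, adjusted p 0.288), the nobiro6 SD resting on replicate 1, and FER4 at 34.2 ± 8.74 CPM in nobiro6, 24.6 ± 3.14 in bz1728 and 42.2 ± 11.0 in wt (0.48 ± 0.21, adjusted p 0.114).

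Some phosphate starvation genes fell in nobiro6. Of 25 tested, 6 (24%) fell, 1 rose and 18 were not called (median -0.58). Against wt, 18 were higher and 2 lower in bz1728, and 14 were higher in nobiro6. Over all 25 members the median log2 fold change against wt was 1.60 in bz1728 and 0.86 in nobiro6. PAP17, a purple acid phosphatase, had 90.4, 101, 63.5 and 143 CPM in the nobiro6 libraries, against 249, 255, 289 and 159 CPM in the bz1728 libraries. The nobiro6 libraries all lay lower (-1.26 ± 0.27, adjusted p 0.00313), although nobiro6 replicate 4 and bz1728 replicate 4 came close, and wt stood at 36.4 ± 10.1 CPM. PHO1;H1, a phosphate exporter, stood at 12.7 ± 7.45 CPM in nobiro6, 35.6 ± 6.37 in bz1728 and 12.4 ± 2.902 in wt (-1.47 ± 0.29, adjusted p 0.00147). SPX1, whose protein senses phosphate, had 63.6, 68.9, 43.6 and 117 CPM in the nobiro6 libraries, against 207, 165, 226 and 109.8 CPM in the bz1728 libraries (-1.28 ± 0.36, adjusted p 0.0194). Its groups overlapped at replicate 4 of each line, and wt stood at 21.8 ± 9.41 CPM.

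SPX4 went the other way, at 11.1 ± 2.41 CPM in nobiro6, 5.26 ± 1.97 in bz1728 and 10.4 ± 2.97 in wt (1.08 ± 0.27, adjusted p 0.00545). The other members that fell were SPX2 (-0.45 ± 0.14), the sulfolipid gene SQD1 (-0.58 ± 0.17) and the kinase gene PPCK1 (-0.91 ± 0.29). The list summed to 737 to 1399 CPM in nobiro6, 1167 to 2049.7 in bz1728 and 506 to 606 in wt. Its count rests on single libraries: the 6 that fell were 10 without nobiro6 replicate 4, 9 without bz1728 replicate 4, 2 without nobiro6 replicate 3, 2 without bz1728 replicate 3 and 3 without bz1728 replicate 1, and the SPX1 call was lost without nobiro6 replicates 1 or 3 or bz1728 replicate 3 (adjusted p 0.0545 to 0.0568).

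**Figure D3:**
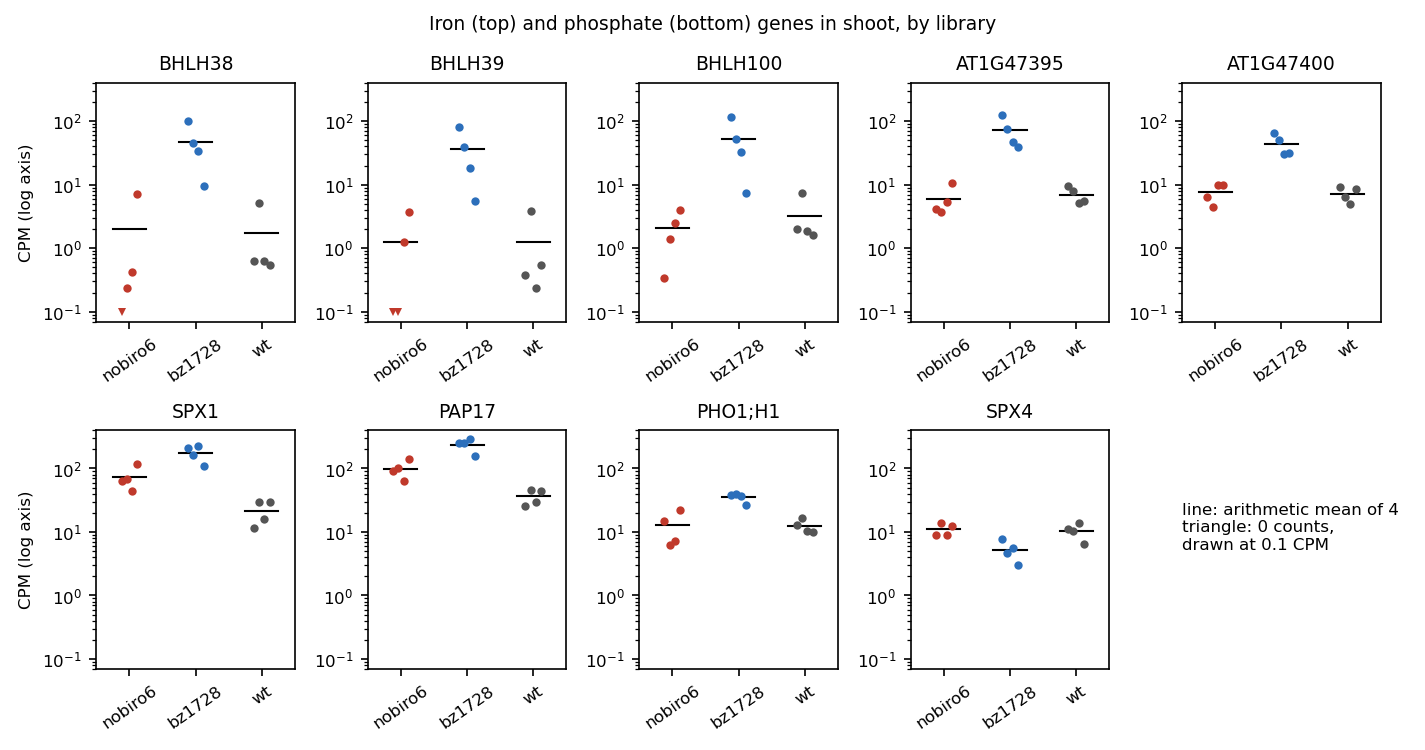
Level in CPM (log axes) of 5 iron deficiency genes (top) and 4 phosphate genes (bottom) in each shoot library of nobiro6, bz1728 and wt; lines are arithmetic means of 4 and triangles mark libraries with 0 counts, drawn at 0.1 CPM. The means of the iron genes in nobiro6 and wt lie close together, below bz1728, whereas the SPX1 and PAP17 means of nobiro6 lie between those of bz1728 and wt.

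Genes of the circadian clock differed between the lines. Of 21 tested 11 fell and 1 rose (median -0.44). With 1 library left out the number that fell was 8 to 11. Against wt, 9 were higher and 2 lower in bz1728, and 3 were lower in nobiro6. GI, which links the clock to flowering, had 25.5, 30.2, 34.7 and 34.1 CPM in the nobiro6 libraries, against 75.6, 71.9, 79.3 and 53.4 CPM in the bz1728 libraries, with no overlap (-1.18 ± 0.12, adjusted p 1.35e-07), and wt stood between them at 45.2 ± 6.16 CPM. TOC1, an evening repressor of the clock, stood at 17.2 ± 1.45 CPM in nobiro6, 31.9 ± 9.45 in bz1728 and 16.0 ± 1.89 in wt (-0.87 ± 0.15, adjusted p 0.000203). CDF1, a repressor of CONSTANS, stood at 36.0 ± 3.54 CPM in nobiro6, 70.5 ± 4.67 in bz1728 and 53.6 ± 2.17 in wt (-0.96 ± 0.11, adjusted p 1.05e-06). LNK2, a morning co-activator, had 831, 920.1, 931 and 983 CPM in the nobiro6 libraries, against 499, 551, 540.2 and 669 CPM in the bz1728 libraries and was the member that rose (0.70 ± 0.09, adjusted p 4.44e-06). Its nobiro6 libraries were close to the 888 ± 40.2 CPM of wt. The other members that fell were PRR5 (-1.87 ± 0.46), ELF4 (-1.71 ± 0.35), BOA (-1.71 ± 0.30), ELF3 (-1.29 ± 0.22), PRR9 (-1.07 ± 0.29), GRP7 (-0.78 ± 0.21), LUX (-0.64 ± 0.20) and RVE1 (-0.42 ± 0.13). The labels give no hour of harvest for any line, so its part in these values was not tested.

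Among 15 floral regulators tested, 4 fell and none rose. FUL, a MADS-box gene active at the floral transition, had 0.844, 1.86, 0.415 and 1.98 CPM in the nobiro6 libraries, against 5.79, 5.76, 6.47 and 6.20 CPM in the bz1728 libraries. The bz1728 libraries were tightly grouped well above nobiro6 (-2.28 ± 0.32, adjusted p 1.1e-05), and wt stood at 1.95 ± 0.269 CPM. SOC1, a MADS-box integrator of flowering signals, stood at 18.3 ± 2.19 CPM in nobiro6, 32.1 ± 3.47 in bz1728 and 21.9 ± 3.87 in wt (-0.81 ± 0.12, adjusted p 3.84e-05). The SPL genes, targets of the ageing microRNA, fell as well: SPL9 stood at 3.57 ± 0.718 CPM in nobiro6, 8.28 ± 1.98 in bz1728 and 4.48 ± 0.755 in wt (-1.22 ± 0.22, adjusted p 0.000227) and SPL3 at 5.07 ± 1.003 CPM in nobiro6, 10.9 ± 2.75 in bz1728 and 8.60 ± 0.909 in wt (-1.12 ± 0.20, adjusted p 0.000216). STM, a homeobox gene of the shoot meristem, had 0.675, 0.696, 1.25 and 1.32 CPM in the nobiro6 libraries, against 4.14, 3.84, 4.64 and 3.20 CPM in the bz1728 libraries, again without overlap (-2.01 ± 0.40, adjusted p 0.000676). KNAT1 was not called (-0.60 ± 0.26, adjusted p 0.1). Of 7 genes of the guard cell lineage FAMA (-0.45 ± 0.11, adjusted p 0.00339) and KAT1 (-0.47 ± 0.13, adjusted p 0.00998) fell, the KAT1 call being lost without nobiro6 replicate 1 (adjusted p 0.0574).

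Several sucrose transporter genes fell in nobiro6. Of 22 genes of sugar transport and starch 7 fell and 2 rose. SWEET13, a sucrose exporter, had 1.69, 2.09, 1.45 and 2.42 CPM in the nobiro6 libraries, against 11.9, 11.7, 15.3 and 12.4 CPM in the bz1728 libraries. No library of the lines overlapped (-2.76 ± 0.24, adjusted p 7.19e-09), and wt lay between, at 4.75 ± 1.02 CPM. The phloem exporters SWEET11 and SWEET12 stood at 203 ± 23.0 CPM in nobiro6, 349 ± 31.2 in bz1728 and 193 ± 19.6 in wt, and at 24.2 ± 3.49 CPM in nobiro6, 44.4 ± 7.61 in bz1728 and 20.7 ± 2.69 in wt (-0.79 ± 0.09, adjusted p 4.81e-07; -0.88 ± 0.13, adjusted p 1.96e-05). For both, nobiro6 was near wt. SUC2, which loads sucrose into the phloem, stood at 82.2 ± 19.3 CPM in nobiro6, 143 ± 11.9 in bz1728 and 110.1 ± 5.49 in wt (-0.80 ± 0.11, adjusted p 7.73e-06). The starch genes PHS2 (-1.23 ± 0.23), BAM3 (-0.51 ± 0.09) and SEX1 (-0.29 ± 0.10) fell too, while SUC1 (0.65 ± 0.20) and DIN10 (1.05 ± 0.35) rose. The number that rose was 0 without nobiro6 replicate 1 or 4 or bz1728 replicate 2 or 4, and 1 without nobiro6 replicate 2 or bz1728 replicate 1.

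Genes that respond to abscisic acid (ABA), cold and drought fell in part. Of 21 tested 9 fell, 1 rose and 11 were not called (median -0.64), and against wt 3 were higher in bz1728 while 5 were lower and 1 higher in nobiro6. NCED3, which makes the ABA precursor, had 3.04, 2.09, 2.49 and 0.659 CPM in the nobiro6 libraries, against 11.3, 16.0, 15.1 and 10.6 CPM in the bz1728 libraries, each nobiro6 library far below bz1728 (-2.64 ± 0.46, adjusted p 0.000413), with wt at 3.99 ± 2.73 CPM. GOLS2, a galactinol synthase induced by drought, stood at 10.2 ± 6.08 CPM in nobiro6, 40.04 ± 4.97 in bz1728 and 13.0 ± 7.81 in wt (-1.95 ± 0.43, adjusted p 0.0041). CYP707A1, which breaks down ABA, and ABI2, a phosphatase of ABA signalling, fell by 1.51 ± 0.33 and 0.68 ± 0.17 on the log2 scale (adjusted p 0.00195 and 0.00424). The rest that fell were COR15A (-1.45 ± 0.43), COR15B (-1.54 ± 0.45), COR47 (-0.54 ± 0.14), ERD10 (-0.67 ± 0.22) and ABI1 (-0.64 ± 0.19), and ADH1 rose (3.48 ± 1.04). Without nobiro6 replicate 3 or 4 or bz1728 replicate 2 the number that fell was 6, and the ADH1 call was lost without nobiro6 replicate 1 or any 1 of the bz1728 libraries.

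Nitrogen genes moved both ways. Of 20 tested 5 rose and 3 fell. The nitrate transporter genes NRT1.7 (42.6 ± 11.8 CPM in nobiro6, 92.9 ± 11.7 in bz1728 and 64.2 ± 8.43 in wt; -1.11 ± 0.18, adjusted p 0.000256) and NRT1.5 (16.9 ± 7.07 CPM in nobiro6, 35.1 ± 0.574 in bz1728 and 31.7 ± 6.21 in wt; -1.07 ± 0.23, adjusted p 0.00257) fell. The nitrogen-responsive repressor genes LBD37 (0.60 ± 0.14, adjusted p 0.00324) and LBD39 (0.67 ± 0.14, adjusted p 0.00114) rose, with LBD39 at 63.1 ± 11.1 CPM in nobiro6, 39.6 ± 3.91 in bz1728 and 57.96 ± 10.1 in wt. LBD38 (0.74 ± 0.23), NRT1.8 (2.97 ± 0.99) and GLN1;3 (0.31 ± 0.09) rose and ASN2 (-0.62 ± 0.16) fell. The number that rose was 2 without nobiro6 replicate 2 or bz1728 replicate 2, and 3 without bz1728 replicate 4.

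Genes of the ER body, a store of defensive glucosidase in Brassicaceae, were lower in nobiro6. Of 7 tested 4 fell and none rose (median -0.86), the same count with any 1 of the 8 libraries left out. NAI2, which is needed for ER body formation, had 42.0, 48.0, 47.7 and 50.5 CPM in the nobiro6 libraries, against 109, 117, 119 and 99.4 CPM in the bz1728 libraries. The lines did not overlap (-1.24 ± 0.11, adjusted p 6.53e-09). PYK10, the glucosidase itself, stood at 118 ± 36.9 CPM in nobiro6, 289 ± 56.0 in bz1728 and 391.8 ± 157 in wt (-1.30 ± 0.26, adjusted p 0.0022), TSA1 at 23.5 ± 4.80 CPM in nobiro6, 53.1 ± 7.93 in bz1728 and 44.6 ± 14.6 in wt (-1.17 ± 0.23, adjusted p 0.00177) and the membrane protein gene MEB1 at 6.63 ± 1.28 CPM in nobiro6, 12.1 ± 1.06 in bz1728 and 11.5 ± 3.91 in wt (-0.86 ± 0.23, adjusted p 0.0105). Here bz1728 stood near wt and nobiro6 below both, and nbr6-t1 held 71.7 ± 4.99 CPM of NAI2 and 183 ± 24.96 CPM of PYK10.

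The sulfur deficiency marker LSU1 showed a like order. LSU1, a small protein induced by sulfur shortage, had 7.09, 5.57, 3.53 and 1.98 CPM in the nobiro6 libraries, against 60.2, 43.3, 46.7 and 31.0 CPM in the bz1728 libraries, without overlap (-3.27 ± 0.52, adjusted p 0.000332), with 3.95 ± 1.699 CPM in nbr6-t1 and 28.7 ± 15.04 CPM in wt. LSU2 (-1.37 ± 0.43, adjusted p 0.0334) and APR2, a reductase of sulfate assimilation (-0.52 ± 0.17, adjusted p 0.0389), also fell, so 3 of 12 tested fell. Those calls were lost without nobiro6 replicates 2, 3 or 4 or bz1728 replicates 1, 2 or 4 (adjusted p 0.0521 to 0.0915) for LSU2 and without nobiro6 replicates 2, 3 or 4 or bz1728 replicates 1, 2, 3 or 4 (adjusted p 0.0531 to 0.114) for APR2. Of 19 aliphatic glucosinolate genes, MYB28, their main activator (45.0 ± 3.27 CPM in nobiro6, 79.6 ± 4.99 in bz1728 and 49.4 ± 6.34 in wt; -0.82 ± 0.14, adjusted p 0.00035), and CYP79F2, which begins the core pathway (-0.65 ± 0.18, adjusted p 0.0148), fell, and none rose. Against wt, 11 of the 19 were higher in nobiro6 and 14 in bz1728. The CYP79F2 call was lost without nobiro6 replicate 1 or bz1728 replicate 3 (adjusted p 0.053 to 0.0573).

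Of 20 cell wall genes 5 (25%) fell and 2 (10%) rose. The expansin genes EXPA3 (22.5 ± 2.07 CPM in nobiro6, 47.9 ± 2.52 in bz1728 and 36.8 ± 5.23 in wt; -1.09 ± 0.14, adjusted p 5.98e-06) and EXPA11 (13.4 ± 1.54 CPM in nobiro6, 29.7 ± 4.63 in bz1728 and 20.08 ± 2.13 in wt; -1.16 ± 0.16, adjusted p 8.71e-06) fell without overlap. XTH17, a xyloglucan-modifying enzyme, fell by 2.90 ± 0.42 on the log2 scale, at 0.701 ± 0.473 CPM in nobiro6, 4.98 ± 1.15 in bz1728 and 13.8 ± 3.102 in wt. XTH16 (-0.87 ± 0.16) and BGAL9 (-5.41 ± 0.16) fell as well, and XTH4 (0.50 ± 0.10) and XTH9 (0.51 ± 0.14) rose. Of 16 aquaporin genes 3 (19%) fell and 2 (12%) rose, where 12.8% of all genes fell and 8.12% rose. PIP2;5 stood at 4.81 ± 0.767 CPM in nobiro6, 9.92 ± 1.91 in bz1728, 3.95 ± 0.511 in nbr6-t1 and 8.43 ± 1.44 in wt (-1.03 ± 0.19, adjusted p 0.000371). PIP2;8 fell as well (-0.96 ± 0.16, adjusted p 0.000113), as did PIP2;7 (-0.20 ± 0.07, adjusted p 0.0362), whose call was lost without nobiro6 replicates 1, 3 or 4 or bz1728 replicates 2, 3 or 4 (adjusted p 0.055 to 0.103). PIP2;1 (0.26 ± 0.07, adjusted p 0.00726) and PIP1;1 (0.24 ± 0.08, adjusted p 0.0385) rose.

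Of 23 cell cycle genes 6 fell and 1 rose. CYCD3;1, a G1 cyclin, stood at 20.7 ± 1.95 CPM in nobiro6, 32.3 ± 3.26 in bz1728 and 26.2 ± 2.21 in wt (-0.63 ± 0.12, adjusted p 0.00049), and the mitotic kinase gene CDKB2;2 at 4.31 ± 0.413 CPM in nobiro6, 7.65 ± 1.31 in bz1728 and 5.38 ± 0.806 in wt (-0.80 ± 0.21, adjusted p 0.00867). CDKB2;1 (-0.67 ± 0.19, adjusted p 0.0117), AUR1 (-0.84 ± 0.26), KN (-0.41 ± 0.15) and CDC20.1 (-0.44 ± 0.13, adjusted p 0.0152; reads shared with a close copy) fell, and MCM6 rose (0.41 ± 0.14). Without bz1728 replicate 4 the number that fell was 2 rather than 6, and calls were lost for CDKB2;1 without bz1728 replicate 4 (adjusted p 0.0518) and for CDC20.1 without bz1728 replicates 1 or 4 (adjusted p 0.0521 to 0.0736).

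Of 19 auxin-responsive genes 4 rose and 4 fell. IAA1, an early auxin repressor gene, had 17.7, 21.4, 17.2 and 19.8 CPM in the nobiro6 libraries, against 6.07, 4.91, 6.33 and 8.20 CPM in the bz1728 libraries. Each nobiro6 library held more than 2 times any bz1728 library (1.56 ± 0.18, adjusted p 5.49e-07), and wt stood at 19.6 ± 3.79 CPM. IAA3 rose too, at 56.2 ± 8.06 CPM in nobiro6, 35.7 ± 3.36 in bz1728 and 53.7 ± 0.521 in wt (0.65 ± 0.09, adjusted p 1.52e-05), while IAA7 (88.5 ± 5.14 CPM in nobiro6, 153 ± 13.2 in bz1728 and 182 ± 12.3 in wt; -0.79 ± 0.08, adjusted p 5.51e-08) and IAA12 (-0.51 ± 0.11, adjusted p 0.00127) fell. Among 23 jasmonate genes 2 (8.70%) rose and 2 (8.70%) fell, together a share no higher than the 21.0% called among all genes. The repressor gene JAZ6 stood at 59.8 ± 14.4 CPM in nobiro6, 26.1 ± 3.64 in bz1728 and 66.1 ± 5.84 in wt (1.19 ± 0.24, adjusted p 0.00197). MYC2, the pathway's main activator, stood at 57.6 ± 13.9 CPM in nobiro6, 111 ± 16.3 in bz1728 and 80.0 ± 22.8 in wt (-0.95 ± 0.21, adjusted p 0.0043), and the storage protein gene VSP2 at 35.5 ± 17.36 CPM in nobiro6, 101 ± 11.4 in bz1728 and 34.4 ± 12.0 in wt (-1.49 ± 0.40, adjusted p 0.0151). JAZ2 rose (0.67 ± 0.23, adjusted p 0.0459), a call lost without nobiro6 replicates 1 or 2 or bz1728 replicates 2, 3 or 4 (adjusted p 0.0674 to 0.191).

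Of 18 genes for salicylic acid and immunity SARD1 alone was called. It had 10.8, 5.11, 1.45 and 3.296 CPM in the nobiro6 libraries, against 1.104, 1.28, 0.985 and 0.200 CPM in the bz1728 libraries, with nobiro6 replicate 1 the highest (2.56 ± 0.69, adjusted p 0.0136), and was lost without nobiro6 replicate 1 (adjusted p 0.0662), with a log2 fold change of 1.85. The defence marker PR2 had 9.28, 2.09, 7.06 and 1.32 CPM in the nobiro6 libraries, against 0, 0, 0.844 and 0.600 CPM in the bz1728 libraries and was not called (3.51 ± 2.18, adjusted p 0.289), and neither was PR5 (3.08 ± 1.49 CPM in nobiro6 against 5.74 ± 0.824 in bz1728). Among the ethylene genes EBF2, for a subunit of the ligase that removes EIN3, rose (1.08 ± 0.25, adjusted p 0.00655). Of 17 flavonoid genes FLS1, for flavonol synthase, rose (159 ± 17.2 CPM in nobiro6, 97.5 ± 16.8 in bz1728 and 98.5 ± 6.23 in wt; 0.72 ± 0.13, adjusted p 0.000366). TT4 rose too (0.36 ± 0.13, adjusted p 0.0444), and TT5 (-0.50 ± 0.14, adjusted p 0.0143) and UGT78D2 (-0.42 ± 0.12, adjusted p 0.0147) fell. Calls were lost for TT4 without nobiro6 replicates 1, 2, 3 or 4 or bz1728 replicates 2, 3 or 4 (adjusted p 0.0644 to 0.121), for TT5 without nobiro6 replicate 4 or bz1728 replicate 1 (adjusted p 0.0526 to 0.0552) and for UGT78D2 without nobiro6 replicate 1 or bz1728 replicates 2 or 4 (adjusted p 0.0525 to 0.0604).

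Heat shock genes gave 4 increases and 2 decreases among 14. ROF2, a peptidyl-prolyl isomerase that binds HSP90, had 391, 1017, 951 and 665 CPM in the nobiro6 libraries, against 246, 246, 316 and 201 CPM in the bz1728 libraries, all nobiro6 values above all bz1728 values though they spread more than 2-fold (1.58 ± 0.32, adjusted p 0.00231). HSP23.6-MITO rose (2.31 ± 0.59, adjusted p 0.00769), as did HSP17.6A (1.91 ± 0.50) and HSP17.4 (2.16 ± 0.56). HSP18.2 (-2.18 ± 0.55, adjusted p 0.00604) and HSFA7A (-0.93 ± 0.24, adjusted p 0.00773) fell. Of 7 senescence genes SAG13 (4.07 ± 1.36), NAP (1.74 ± 0.49) and NAC6 (2.19 ± 0.70) rose and NYC1 (-0.30 ± 0.09) fell. The number that rose was 0 without bz1728 replicate 1 or 2, 1 without nobiro6 replicate 1 or bz1728 replicate 4, 2 without nobiro6 replicate 2 and 5 without nobiro6 replicate 3. Calls were lost for NAP without bz1728 replicates 1 or 2 (adjusted p 0.0506 to 0.0513), for NAC6 without nobiro6 replicates 1, 2 or 4 or bz1728 replicates 1, 2 or 4 (adjusted p 0.0573 to 0.105) and for NYC1 without nobiro6 replicates 1 or 4 or bz1728 replicate 3 (adjusted p 0.0613 to 0.117), and without bz1728 replicate 3 the log2 fold changes were 2.51 for NAP and 3.05 for NAC6.

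Among called genes whose lines did not overlap and whose log2 CPM averaged 1 or more, the 12 largest decreases were headed by BGAL9, a beta-galactosidase of the cell wall. It had 0.844, 0.928, 1.66 and 0.879 CPM in the nobiro6 libraries, against 45.3, 42.2, 47.7 and 50.4 CPM in the bz1728 libraries. BGAL9 fell by 5.41 ± 0.16 on the log2 scale (adjusted p 4.46e-18), and wt (49.4 ± 3.23 CPM) and nbr6-t1 (60.8 ± 1.33 CPM) stood with bz1728. The loci AT3G28290 and AT3G28300, both named AT14A, an integrin-like protein, had identical estimates and share their reads. Each had 0.337, 0.232, 0.208 and 0 CPM in the nobiro6 libraries, against 8.83, 7.04, 11.3 and 10.2 CPM in the bz1728 libraries (-5.39 ± 0.43, adjusted p 2.7e-09). The 12 also include the iron genes BHLH38, BHLH39 and BHLH100.

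The other 6 fell in nobiro6 against wt as well. FMO GS-OX2, which oxidizes the side chain of methionine-derived glucosinolates, had 3.21, 6.73, 2.70 and 2.197 CPM in the nobiro6 libraries, against 71.7, 58.7, 73.0 and 52.0 CPM in the bz1728 libraries. Every nobiro6 library was far below bz1728 (-4.13 ± 0.35, adjusted p 3.83e-07), with 5.80 ± 1.77 CPM in nbr6-t1 and 26.7 ± 9.88 CPM in wt. BAT1, an acyltransferase acting on brassinosteroids, stood at 0.463 ± 0.461 CPM in nobiro6, 9.68 ± 2.29 in bz1728, 0.664 ± 0.420 in nbr6-t1 and 4.34 ± 1.78 in wt (-4.34 ± 0.47, adjusted p 2.98e-07). SCPL9, a serine carboxypeptidase-like gene, stood at 0.818 ± 0.295 CPM in nobiro6, 12.7 ± 1.78 in bz1728, 1.93 ± 0.765 in nbr6-t1 and 5.47 ± 1.76 in wt (-3.92 ± 0.33, adjusted p 5.42e-09), and AT3G55290, annotated as a Rossmann-fold protein, at 0.647 ± 0.156 CPM in nobiro6, 9.09 ± 0.847 in bz1728, 0.854 ± 0.398 in nbr6-t1 and 4.31 ± 0.811 in wt (-3.74 ± 0.30, adjusted p 3.06e-09). AT3G44970, annotated as a cytochrome P450, and AT1G12030, of the DUF506 family, fell by 3.76 ± 0.29 and 3.76 ± 0.70 on the log2 scale. The BAT1 change was -5.09 without nobiro6 replicate 4. Outside the 12, AT1G04660, annotated as a glycine-rich protein, had 0 counts in all 4 nobiro6 libraries and 2.76, 2.99, 4.78 and 2.2 CPM in the bz1728 libraries. It was at least 22.1-fold lower, set against 3 counts over the nobiro6 group, and stood at 0.124 ± 0.156 CPM in nbr6-t1 against 6.58 ± 2.86 CPM in wt.

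The 12 largest increases were led by BZIP28 and AT3G10810. Next came AT3G01345, annotated as an uncharacterized protein, with 14.5, 40.9, 12.9 and 5.27 CPM in the nobiro6 libraries, against 0, 0.427, 0.563 and 0.800 CPM in the bz1728 libraries. It was higher in all 4 nobiro6 libraries (5.17 ± 0.67, adjusted p 2.19e-05): nbr6-t1 held 0.704 ± 0.481 and wt 0.632 ± 0.322 CPM. ATPMEPCRD, of the pectin methylesterase and inhibitor family, had 4.56, 6.50, 4.77 and 5.05 CPM in the nobiro6 libraries, against 1.104, 0.853, 0.422 and 0.600 CPM in the bz1728 libraries, close within each line and without overlap (2.86 ± 0.50, adjusted p 0.000186). ESE3, an ethylene- and salt-induced transcription factor gene, stood at 19.4 ± 8.30 CPM in nobiro6, 2.18 ± 1.23 in bz1728, 19.2 ± 6.27 in nbr6-t1 and 10.9 ± 3.08 in wt (3.17 ± 0.44, adjusted p 6.51e-05), and AT3G21460, annotated as a glutaredoxin, at 5.72 ± 2.24 CPM in nobiro6, 0.795 ± 0.282 in bz1728, 4.78 ± 1.29 in nbr6-t1 and 4.51 ± 1.44 in wt (2.91 ± 0.38, adjusted p 4.93e-06). In ATPMEPCRD, ESE3 and AT3G21460 the bz1728 mean was the lowest of these 4 lines. The AT3G01345 change was 4.44 without nobiro6 replicate 2.

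For the rest of the 12 a single nobiro6 library carried much of the mean or the call was unsteady. SAG13, a senescence-associated dehydrogenase, had 113, 24.8, 25.1 and 10.5 CPM in the nobiro6 libraries, against 1.66, 1.71, 5.49 and 0.400 CPM in the bz1728 libraries. PLA2A, a lipid acyl hydrolase of defence, had 43.2, 2.09, 5.40 and 1.76 CPM in the nobiro6 libraries, against 1.38, 1.49, 1.69 and 0 CPM in the bz1728 libraries. In both, nobiro6 replicate 1 was the highest by more than 4-fold, and without it the log2 fold changes were 2.93 rather than 4.07 for SAG13 and 1.41 rather than 3.54 for PLA2A. LHT1, an amino acid transporter, stood at 5.95 ± 5.04 CPM in nobiro6 against 0.814 ± 0.791 in bz1728 (2.67 ± 0.60, adjusted p 0.00341) and GSTF7, a glutathione transferase, at 41.2 ± 36.2 CPM in nobiro6 against 5.30 ± 4.34 in bz1728 (2.87 ± 0.84, adjusted p 0.0241), with the same library highest. Without it their log2 fold changes were 1.84 and 2.03, and without bz1728 replicate 3 they were 3.52 and 3.76. AT1G53540, annotated as an HSP20-like chaperone, stood at 17.2 ± 12.5 CPM in nobiro6 against 2.26 ± 1.34 in bz1728 (2.79 ± 0.73, adjusted p 0.0129), with 3.41 without bz1728 replicate 3. ARR15, a type-A response regulator induced by cytokinin, stood at 5.20 ± 2.86 CPM in nobiro6, 0.899 ± 0.344 in bz1728, 5.18 ± 3.02 in nbr6-t1 and 8.97 ± 6.38 in wt (2.58 ± 0.79, adjusted p 0.0278). Calls were lost for SAG13 without nobiro6 replicates 1 or 2 or bz1728 replicates 1, 2, 3 or 4 (adjusted p 0.0515 to 0.191), for PLA2A without nobiro6 replicate 1 or bz1728 replicates 1, 2, 3 or 4 (adjusted p 0.0592 to 0.302), for GSTF7 without nobiro6 replicate 1 or bz1728 replicates 1, 2 or 4 (adjusted p 0.0505 to 0.12) and for ARR15 without nobiro6 replicates 1, 2 or 4 or bz1728 replicates 2, 3 or 4 (adjusted p 0.0574 to 0.082).

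**Figure D4:**
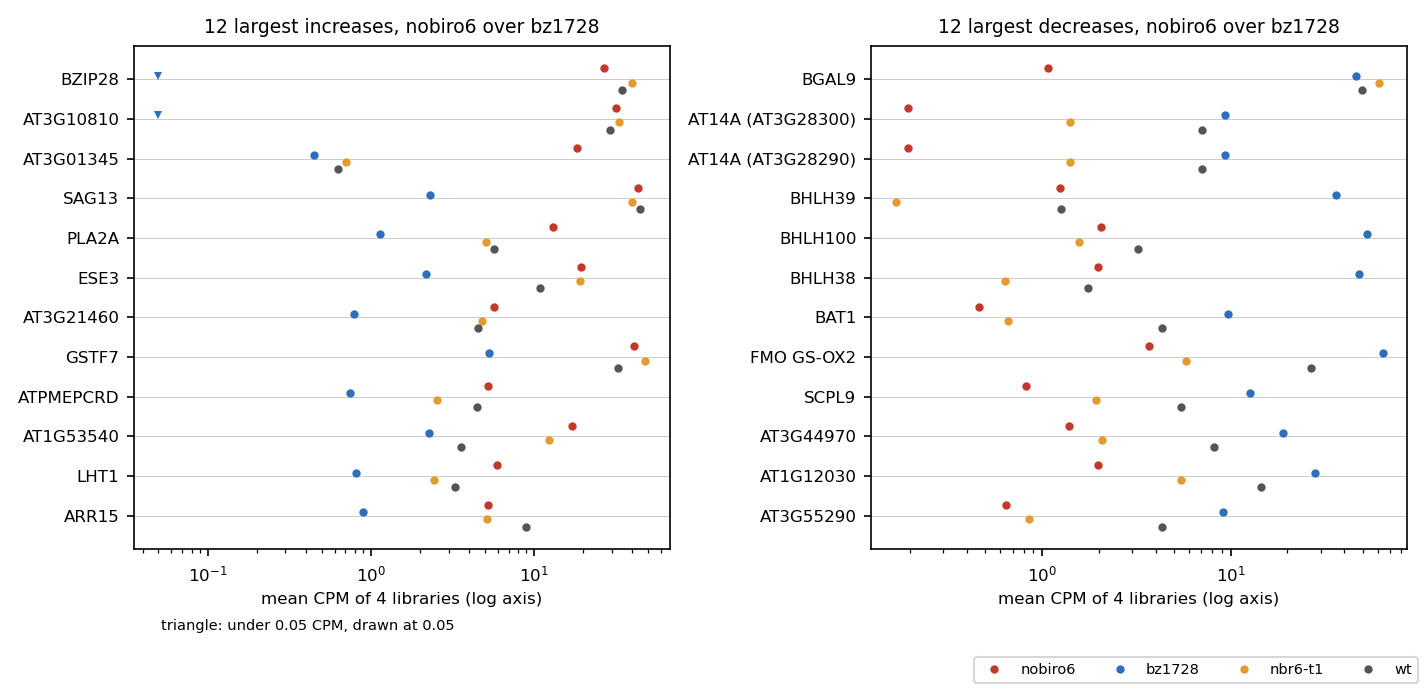
Mean CPM of 4 shoot libraries (log axes) in nobiro6, bz1728, nbr6-t1 and wt for the 12 largest increases (left) and 12 largest decreases (right) of nobiro6 over bz1728 that met the level and overlap rules; triangles mark means under 0.05 CPM. In most increases bz1728 is the lowest of the 4 lines, and in 6 of the decreases, BAT1 to AT3G55290, bz1728 is the highest and nobiro6 lies with or below nbr6-t1.

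The same contrast was set beside nbr6-t1 against wt, which shares no library with it. In nbr6-t1, 1303 genes were called against wt (7.50%), 271 higher (1.56%) and 1032 lower (5.94%). Of the 2232 genes lower in nobiro6 than in bz1728, 707 (31.7%) were also lower in nbr6-t1 than in wt, and these made up 68.5% of the 1032. Of the 1412 higher genes 120 (8.50%) were higher in both, 44.3% of the 271. Opposite calls were few: 9 genes were higher in nobiro6 and lower in nbr6-t1, and 3 the reverse. TLL1, a lipase, and FLP, a MYB factor of the stomatal lineage, were examples of the shared decreases. TLL1 stood at 56.9 ± 10.9 CPM in nobiro6, 336 ± 27.6 in bz1728, 83.4 ± 11.4 in nbr6-t1 and 238 ± 23.7 in wt. FLP stood at 9.80 ± 1.42 CPM in nobiro6, 42.6 ± 4.13 in bz1728, 11.4 ± 3.15 in nbr6-t1 and 30.5 ± 4.61 in wt. In each the step down from bz1728 (-2.57 ± 0.13 and -2.11 ± 0.15) was set beside nbr6-t1 against wt, at -1.51 ± 0.13 and -1.42 ± 0.15. The changes differed for TLL1 (difference -1.05 ± 0.18, adjusted p 0.00605) and the difference was not called for FLP (-0.69 ± 0.22, adjusted p 0.103).

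The difference between the 2 contrasts was tested directly, and 221 genes (1.27%) were called: 95 with the higher value in nobiro6 against bz1728 (0.547%) and 126 with the lower (0.725%). Single libraries moved that count: it was 118 without nbr6-t1 replicate 2, 128 without nobiro6 replicate 1, 134 without bz1728 replicate 2 and 367 without nobiro6 replicate 3. Among the named genes BZIP28 had the highest difference and BGAL9 the lowest. BGAL9 was low in nobiro6 alone of the 5 lines, standing at 42.7 ± 5.79 CPM in taf12-t1 (difference for BGAL9 -5.71 ± 0.19, adjusted p 7.84e-17). IAA1 differed by 1.63 ± 0.23, adjusted p 0.000299, and stood lowest in bz1728. ATPMEPCRD (3.65 ± 0.63, adjusted p 0.00442), UNE15, of the late embryogenesis abundant family (1.53 ± 0.26, adjusted p 0.00309), and SNG1, which makes sinapoylmalate (0.81 ± 0.10, adjusted p 5.9e-05), differed in the same direction. SNG1 had 436, 444, 410.5 and 426 CPM in the nobiro6 libraries, against 248, 235, 248 and 265 CPM in the bz1728 libraries, and nbr6-t1 (464 ± 46.6 CPM) and wt (471 ± 30.9 CPM) stood with nobiro6. SWEET11 (-0.77 ± 0.12, adjusted p 0.00198), the chromatin protein gene HMGB2 (-0.89 ± 0.13, adjusted p 0.000967), the gibberellin-regulated GASA4 (-0.69 ± 0.11, adjusted p 0.00309) and MBP2, a myrosinase-binding protein (-1.90 ± 0.31, adjusted p 0.00342), differed the other way. MBP2 stood at 7.44 ± 2.62 CPM in nobiro6, 34.8 ± 7.40 in bz1728, 8.41 ± 2.35 in nbr6-t1 and 10.6 ± 1.18 in wt, with bz1728 the highest.

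Finally, the change in shoot was set against the same contrast in root, in a fit of all 40 libraries. In root 5553 of 20015 genes were called (27.7%; 2534 higher, 12.7%, and 3019 lower, 15.1%). Among 17363 genes tested in both, 738 were lower in nobiro6 in both tissues, 33.1% of those lower in shoot and 33.2% of those lower in root. Higher in both were 311, 22.0% and 13.8% of the lists. Opposite calls were 141 higher in shoot and lower in root, and 166 lower in shoot and higher in root. The shoot and root changes differed for 3170 genes (15.8%), the shoot value being the higher in 1421 (7.10%) and the lower in 1749 (8.74%).

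Stress-type UPR genes were among those that differed. In root 8 fell, of 11 tested in both tissues, against 3 in shoot, and the difference was called for 4, all with the lower value in root. For BZIP60 the shoot minus root difference was 0.72 ± 0.13, adjusted p 8.18e-05, and for SEC31A 1.36 ± 0.28, adjusted p 0.000715. Iron deficiency genes fell in both tissues, 14 of 18 in root, and the difference was called for 3. Of 35 photosystem genes 28 rose in root and 13 differed, all with the lower value in shoot. SWEET11 went in opposite directions, -0.80 ± 0.19 in shoot and 4.49 ± 0.46 in root, a difference of -5.29 ± 0.51, adjusted p 1.2e-08. In root it stood at 18.4 ± 10.2 CPM in nobiro6 and 0.933 ± 1.12 CPM in bz1728.

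TLL1 (-2.71 ± 0.21, adjusted p 7.66e-11), FLP (-2.01 ± 0.21, adjusted p 1.78e-09), DRT100, a leucine-rich repeat protein (-2.21 ± 0.23, adjusted p 1.2e-08), and TPS1, a trehalose phosphate synthase (-1.45 ± 0.13, adjusted p 2.08e-11), also had the lower value in shoot. AST91, a sulfate transporter (4.31 ± 0.31, adjusted p 4.31e-14), BLH2, a homeodomain factor (2.81 ± 0.26, adjusted p 1.07e-10), NIT1, a nitrilase with reads shared with close copies (2.39 ± 0.15, adjusted p 7.77e-16), and COL5, a CONSTANS-like factor (1.31 ± 0.12, adjusted p 2.51e-10), had the higher value in shoot. For AST91 the change was 0.39 ± 0.11 in shoot and -3.92 ± 0.28 in root, and for COL5 it was 0.51 ± 0.08 in shoot and -0.80 ± 0.09 in root, so both were higher in nobiro6 shoot and lower in nobiro6 root. The split of the 3170 genes depended on scaling: the share with the higher value in shoot was 44.8% in the fit reported, and 53.9% with relative log expression factors.

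**Figure D5:**
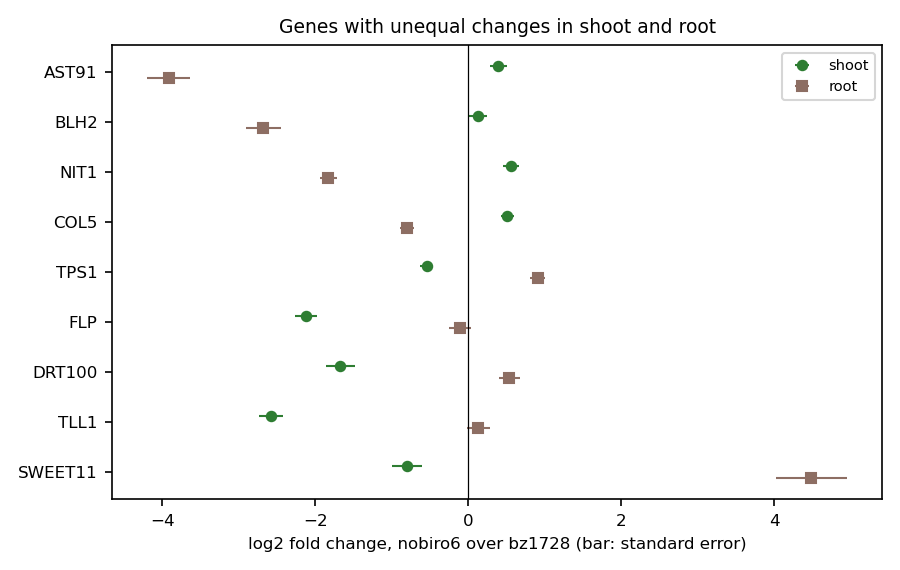
Log2 fold change of nobiro6 over bz1728 (horizontal axis) in shoot (circles) and root (squares) for named genes whose changes differed most reliably between the tissues; bars are standard errors. SWEET11 and TPS1 are lower in shoot and higher in root, and AST91, NIT1 and COL5 are higher in shoot and lower in root.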

How the data were processed

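Messenger RNA was sequenced from root and shoot of 5 lines, 4 libraries each. The deposited tables give, for 27655 loci, an expected count and a TPM (a level scaled by transcript length), made by the authors with Trimmomatic 0.39 and kallisto 0.44.0, per the submitters' processing notes. The genome build, annotation and library strandedness were not given in the sources used here. TPM was not used in tests, and no genome coordinates or sequences are printed. In each library 97.7 to 98.5% of the expected counts were whole numbers within 1e-06, and the rest were split among loci that share reads.

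Expected counts were rounded and tested with the quasi-likelihood test of edgeR 4.0.16 (R 4.3.3), with trimmed-mean factors, the edgeR filter on low counts (minimum 10, total 15) and Benjamini-Hochberg adjustment over all genes tested. A gene was called at an adjusted p under 0.05. The 20 shoot libraries were fitted together, and all 40 for the difference between tissues. A standard error is the fold change over the root of F, an approximation that gives no interval where a group has few counts. The method was tested on simulated data. Intervals and floors (3 counts) cover counting error only.

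Names came from an NCBI RefSeq table of assembly TAIR10.1 by locus code: 27445 loci matched and 10375 had a symbol. The 31 gene lists held 557 members, 556 of them in the tables. The text names the mutated genes and the neighbours of BZIP28, all members of the 2 main ER lists, up to 4 members with the smallest adjusted p from each other list, and the 12 largest changes each way. It also names genes with 0 counts throughout one group and at least 1 CPM throughout the other, and 5 genes each way for each test of a difference; further list members were named because they were called, and 1 result is not reported here. The members and lists were chosen with earlier results of these data known. Alternatives were other size factors, other filters, DESeq2 1.42.0, a replicate block, the compared groups alone and leaving out each library.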

Additional observations from a re-analysis of the deposited data

Results flagged for a closer look

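For 20 of 182 named genes 1 library of a line stood far from the other 3 by Dixon's test at the 95% level. Chance gives this in about 1 in 20 groups, with 2 groups per gene, so chance alone can give many of them. In nobiro6 replicate 1 the values were 3.71 CPM for AT3G10815 (others 0.439 to 0.696 CPM), 127 CPM for BIP2 (others 88.0 to 92.1 CPM), 45.2 CPM for PDIL1-1 (others 35.3 to 36.9 CPM), 309 CPM for FER1 (others 114 to 134 CPM), 3.71 CPM for GRX480 (others 0 to 0.464 CPM), 113 CPM for SAG13 (others 10.5 to 25.1 CPM), 43.2 CPM for PLA2A (others 1.76 to 5.40 CPM) and 13.5 CPM for LHT1 (others 3.11 to 3.96 CPM). In nobiro6 replicate 3 they were 23.4 CPM for ERDJ3A (others 19.5 to 20.08 CPM), 16.2 CPM for EIN4 (others 25.05 to 26.7 CPM), 1.66 CPM for BGAL9 (others 0.844 to 0.928 CPM), 16.0 CPM for NAP (others 34.4 to 36.4 CPM) and 30.1 CPM for FAMA (others 23.1 to 24.1 CPM). In nobiro6 replicate 4 the value was 7.25 CPM for BHLH38 (others 0 to 0.415 CPM). In bz1728 replicate 2 the values were 18.6 CPM for DER2.1 (the others all 19.0 CPM), 6.82 CPM for SPL3 (others 11.8 to 12.6 CPM) and 86.0 CPM for GASA4 (others 79.2 to 79.6 CPM), in replicate 3 104 CPM for GNC (others 91.9 to 93.3 CPM), and in replicate 4 1263 CPM for LHCB4.2 (others 989.7 to 1024 CPM) and 65.0 CPM for TSA1 (others 48.8 to 49.5 CPM).

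The change of nobiro6 against bz1728 differed between shoot and root for 3170 genes, tested as a difference with edgeR. Among the named genes the shoot minus root difference on the log2 scale was 4.31 for AST91, 2.81 for BLH2, 2.39 for NIT1, 1.31 for COL5, -1.45 for TPS1, -2.01 for FLP, -2.21 for DRT100, -2.71 for TLL1 and -5.29 for SWEET11. The change differed from that of nbr6-t1 against wt for 221 genes, and on the log2 scale the difference was 10.10 for BZIP28, 3.65 for ATPMEPCRD, 1.63 for IAA1, 1.53 for UNE15, 0.81 for SNG1, -0.69 for GASA4, -0.77 for SWEET11, -0.89 for HMGB2, -1.90 for MBP2 and -5.71 for BGAL9. The BZIP28 value is not a measured size, since no bz1728 library had a count of this gene.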

How the results depend on the processing

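No called value of a named gene changed direction under any alternative, but the direction of 10 values that were not called did: BZIP17, BIP3, NAC062, TIN1, PDIL1-1, PDIL1-2, PDIL2-1, PDIL2-3, SDF2 and GRX480. Among all genes called for shoot against root, 1 changed direction without nobiro6 shoot replicate 1. Genes called between nobiro6 and bz1728 numbered 3644 as reported, 3708 with relative log expression factors, 3567 with no filter, 3739 with at least 1 CPM in 4 libraries, 3565 with DESeq2, 2991 with the 2 lines fitted alone, and 2846 to 3516 with 1 library left out. Of the 3644, 3379 were also called by DESeq2. Of 199 values for named genes, 5 lost their call with no filter, 7 to 19 with a library of either line left out, and, of 190 that could be fitted, 9 with the lines alone. For the difference from nbr6-t1 against wt the 221 genes became 464 with DESeq2 (53.4% with the higher value, against 43.0%), and 118 to 367 with 1 library left out. The cause was not tested. For shoot against root, the share with the higher value in shoot was 44.8% as reported, 53.9% with relative log expression factors, 55.3% with DESeq2 and 57.3% with the lines alone. Same-numbered libraries of the 2 lines were not alike in their deviations (correlations 0.011, -0.080, -0.296 and -0.072). These correlations cannot show whether same-numbered libraries shared a plate or a harvest. With the replicate block 3532 genes were called between nobiro6 and bz1728, and 6 of the 199 named values lost their call. The nobiro6 and bz1728 libraries were the shallower ones beside wt, so a gene near 1 count per library was not detectable at this depth.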

Other observations

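Chloroplast-encoded genes made up 12 of the 221 genes whose change in nobiro6 against bz1728 differed from that in nbr6-t1 against wt. This was 14.5% of the 83 chloroplast genes tested, where 1.27% of all genes differed. Between nobiro6 and bz1728 themselves 6 of the 83 were called, all higher in nobiro6 (7.23%, against 21.0% of all genes). Chloroplast transcripts took 2.67 to 3.03% of the counts in nobiro6 and 2.64 to 2.89% in bz1728. In the other contrast they took 2.683 to 3.104% in nbr6-t1 and 3.098 to 3.532% in wt. Those ranges met only at replicate 2 of each line, with nbr6-t1 otherwise below wt. Each contrast was tested gene by gene, but which of them gave the 12 differences was not examined. The share of genes called between nobiro6 and bz1728 was alike on the nuclear chromosomes, with 21.7% on chromosome 1, 21.8% on 2, 19.6% on 3, 21.5% on 4 and 20.8% on 5.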
